A study of Mus musculus with 16 samples.

Results

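Atf6, Xbp1, Hsp90b1, Canx and Derl2 are 5 genes of protein folding and unfolded protein sensing in the endoplasmic reticulum. Their RNA levels were compared between embryonic mouse ventricles of cardiomyocyte Atf4 conditional knockouts and of controls. The genes were taken by symbol from the deposited table. All 5 were found among its 5921 rows and among the 2620 genes that could be tested. Bulk RNA-seq was done on ventricles dissected from embryos at E11.5, with 4 libraries in each of 4 groups (16 in all) that the study's design text calls biological replicates. In the exon 2-3 line, exons 2 and 3 of Atf4 were floxed, and in the exon 2 line exon 2 alone was floxed. Both conditional knockouts (cKO) used Xmlc2-Cre, a Cre driven in cardiomyocytes, so the other cells of the ventricle should keep the gene. Each line has its own controls and no embryo was given a drug. The labels give all 16 samples the genotype C57BL/6 WT, and they do not say if control embryos had a floxed allele or Cre. The exon 2-3 line forms batch 1 and the exon 2 line batch 2, and an effect of the line cannot be told apart from one of the batch. The extraction text names cortical neurons, whereas the tissue labels name ventricular heart. The rows used cover chromosomes 1 and 10 and chromosome 11 up to position 106501211 and hold 15.2% to 17.1% of each library's total. Atf4 itself was not analysed here, so its loss in the cKO libraries was not measured.

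Proteins that enter the secretory pathway fold in the endoplasmic reticulum with the help of chaperones, and unfolded protein there activates the membrane sensors ATF6, IRE1 and PERK. ATF6 is cut in the Golgi to release a transcription factor, IRE1 splices Xbp1 mRNA so that it encodes another, and PERK acts through phosphorylation of eIF2 alpha, which raises translation of ATF4. Hsp90b1 encodes GRP94, an abundant chaperone of the endoplasmic reticulum lumen. Canx encodes calnexin, a membrane lectin that holds newly made glycoproteins, and Derl2 encodes derlin-2, which takes part in sending misfolded protein back to the cytosol for degradation.

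Promoter sequence is shown for the 2 chaperone genes because their windows held the endoplasmic reticulum stress element (ERSE), which ATF6 and XBP1 are known to bind with NF-Y. RefSeq promoter windows on GRCm38.p6, from -250 to 49 relative to the transcription start, were found for 4 of the 5 genes: Xbp1, Hsp90b1, Canx and, with 2 windows, Derl2. The ERSE was searched on both strands as CCAAT, then 9 bases of any kind, then CCACG. It occurred in 39 of 32851 windows of the reference table (0.119%). Capitals mark its matches in the windows below, which read 5' to 3' along the gene. The Hsp90b1 window lies on the minus strand at chr10:86705395-86705694 and holds 2 matches, the second on the opposite strand. The Canx window lies on the minus strand at chr11:50325624-50325923 and holds 1.
Hsp90b1: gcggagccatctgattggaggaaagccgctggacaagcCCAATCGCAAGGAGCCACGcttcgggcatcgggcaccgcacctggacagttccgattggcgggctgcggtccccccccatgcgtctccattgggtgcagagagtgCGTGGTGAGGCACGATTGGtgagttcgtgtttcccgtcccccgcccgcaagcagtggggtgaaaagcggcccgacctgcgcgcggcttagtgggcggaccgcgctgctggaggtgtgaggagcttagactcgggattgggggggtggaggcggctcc
Canx: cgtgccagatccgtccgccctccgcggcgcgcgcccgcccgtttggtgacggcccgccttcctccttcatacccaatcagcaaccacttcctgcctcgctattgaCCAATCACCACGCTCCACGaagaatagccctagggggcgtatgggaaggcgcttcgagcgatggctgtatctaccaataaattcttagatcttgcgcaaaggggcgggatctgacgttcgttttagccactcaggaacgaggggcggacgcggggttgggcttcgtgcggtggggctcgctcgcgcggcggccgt
In Hsp90b1 the matches ran from -212 to -194 and from -107 to -89 relative to the start, and in Canx from -145 to -127. ERSE-II (ATTGG, any base, then CCACG, in 0.0365% of windows), the unfolded protein response element UPRE (TGACGTGG, 0.676%) and the ATF4 composite element CARE (TGATGNAA, 3.97%) were searched on both strands and had no match in the windows of these 4 genes. Such a match describes letters only, and no binding was measured here.

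Abundance of the 5 genes differed widely. Levels are in TPM, which scales transcripts to a fixed library total and corrects for their length. Over the 16 libraries Hsp90b1 averaged 691 TPM and ranked 35 of the 2620 genes tested, Canx averaged 290 TPM (rank 86), Xbp1 67.9 TPM (rank 384), Atf6 20.3 TPM (rank 1142) and Derl2 13.2 TPM (rank 1461). The order held in every group: chaperones above Xbp1, and Atf6 and Derl2 lowest. TPM carries no read depth, so the number of reads behind a value is unknown. Gene-level TPM also does not separate spliced from unspliced Xbp1 RNA and does not measure cleavage of ATF6 protein.

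**Figure D1:**
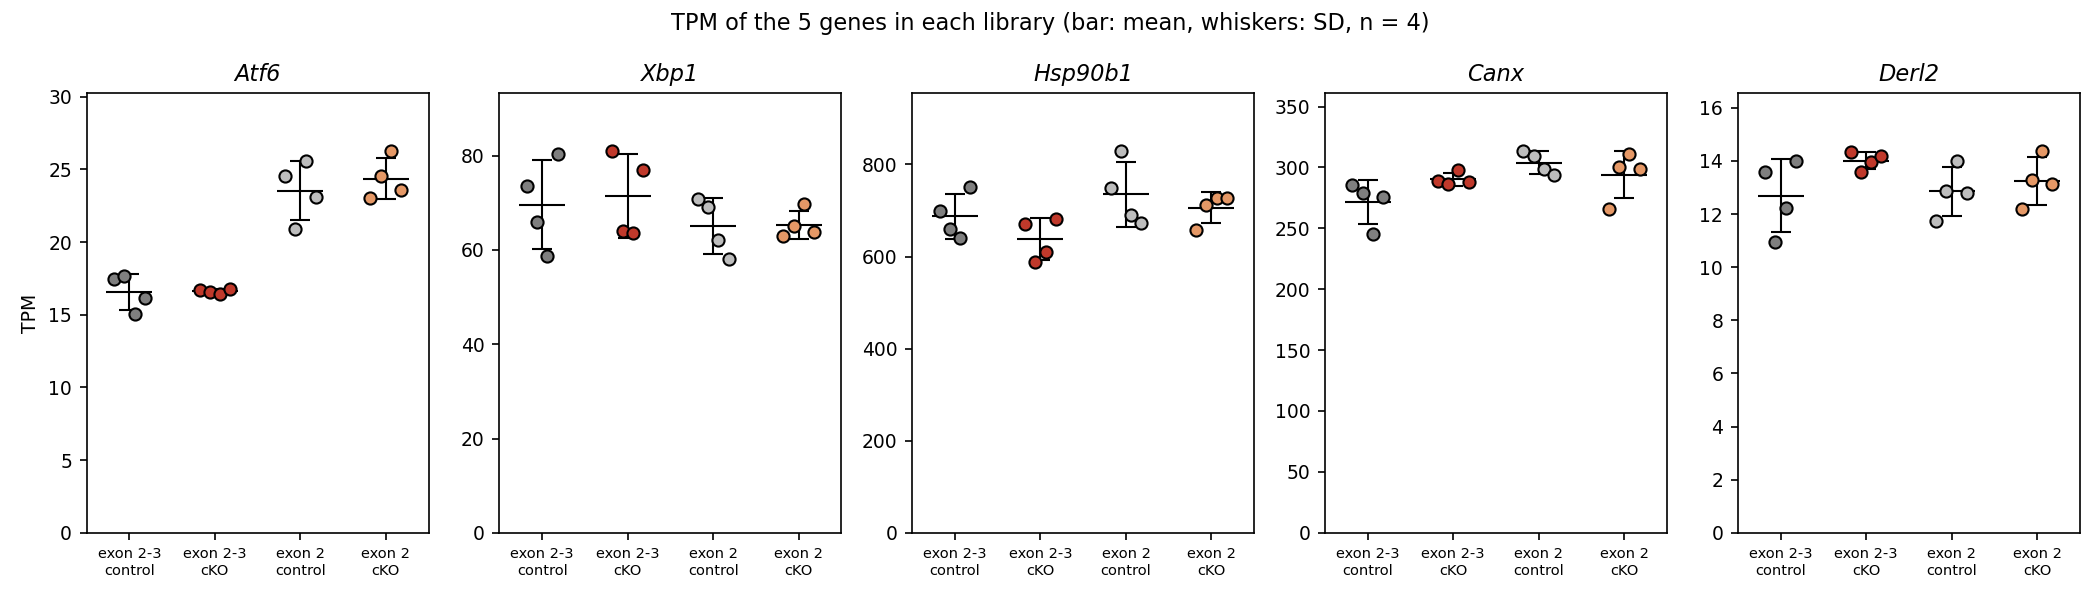
TPM of Atf6, Xbp1, Hsp90b1, Canx and Derl2 (one panel each, linear axis from 0) in each of the 16 libraries, by group, with the group mean and SD (n = 4). In Atf6 all 8 libraries of the exon 2-3 line (15.0 to 17.7 TPM) lie below all 8 of the exon 2 line (20.9 to 26.3 TPM), while cKO and control points of one line share their range in most panels.

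None of the 5 genes passed the test for cKO against control in either line. The test was limma on log2(TPM + 1) within a line, with Benjamini-Hochberg adjustment over all 2620 genes and a threshold of 0.05. In the exon 2-3 line 6.72% of the genes tested were called (176; 4.16% higher and 2.56% lower), against 0 of these 5. Of those calls 61.9% were higher, a share that was 50.5% under quantile normalisation, 41.4% under median centring and 44.7% without control replicate 3. An unadjusted p under 0.05 was found for 21.1% of all genes and for 0 of the 5. In the exon 2 line 0.0763% were called (2), against 0 of these 5, and 3.21% had an unadjusted p under 0.05, against 0 of the 5. For the difference of the cKO effect between the lines, 2.37% were called (62; 1.6% higher and 0.763% lower) and 0 of the 5. There 67.7% of the calls were higher, against 53.4% under quantile normalisation and 52% under median centring. Fold changes below are cKO over control on the log2(TPM + 1) scale with the limma standard error (SE) and n = 4 per group.

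Atf6, the sensor that becomes a transcription factor, lies on chromosome 1 at 170704457 to 170868585 (minus strand). Exon 2-3 controls had 17.5, 17.7, 15.0 and 16.1 TPM and the cKO libraries 16.7, 16.5, 16.5 and 16.8 TPM. All 4 cKO libraries lay inside the control range. The log2 fold change was 0.01 (SE 0.07, limma adjusted p = 0.979), with a 95% confidence interval on the ratio of 0.906 to 1.11, and its sign turned under quantile normalisation (-0.03), median centring (-0.04) and rescaling without hemoglobin genes. Exon 2 controls had 24.5, 20.9, 25.6 and 23.1 TPM and the cKO libraries 23, 24.5, 26.3 and 23.6 TPM. These groups overlapped, with 1 control the lowest of the 8 libraries. The log2 fold change was 0.05 (SE 0.08, limma adjusted p = 0.999), and the ratio's interval ran from 0.923 to 1.16. Rows that overlap Atf6 (Gm9929 on the other strand, and Gm23523, Gm25235 and Gm29733) each averaged 0.205 TPM or less.

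Xbp1, whose mRNA is the substrate of IRE1, lies on chromosome 11 at 5520641 to 5525993 (plus strand) and overlaps no other row. Its exon 2-3 controls had 73.6, 65.8, 58.7 and 80.3 TPM and the cKO libraries 81, 64.1, 63.7 and 77 TPM. The groups overlapped, and in both of them replicates 1 and 4 were above replicates 2 and 3. Xbp1 had a log2 fold change of 0.04 (SE 0.11, limma adjusted p = 0.886), which became -0.01 under median centring, and the ratio's interval of 0.866 to 1.22 was the widest of the 5 genes. Its exon 2 controls had 70.8, 69.2, 62.1 and 58.1 TPM and the cKO libraries 62.9, 65.1, 69.6 and 63.8 TPM. Every cKO library lay between the lowest and the highest control. The log2 fold change was 0.01 (SE 0.07, limma adjusted p = 0.999), with a ratio interval of 0.905 to 1.122.

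Hsp90b1 was the only one of the 5 whose mean was lower in the cKO of both lines, and in neither did it pass the test. It lies on chromosome 10 at 86690841 to 86705444 (minus strand). Hsp90b1 was at 698, 660, 639 and 751 TPM in the exon 2-3 controls and at 671, 587, 610 and 682 TPM in the cKO libraries. The groups overlapped, with 2 cKO libraries below all controls. The log2 fold change was -0.11 (SE 0.07, limma adjusted p = 0.405) and the ratio was 0.928 (95% interval 0.834 to 1.03). The log2 value was -0.06 without control replicate 4 and -0.07 without cKO replicate 2. It was -0.14 without control replicate 3 and without cKO replicate 4, and -0.16 under median centring (limma adjusted p = 0.107). Exon 2 controls had 748, 830, 690 and 673 TPM and the cKO libraries 657, 713, 728 and 727 TPM. The lowest library there was a cKO library and the 2 highest were controls, while the other 3 cKO libraries lay above the 2 lowest controls. The log2 fold change was -0.05 (SE 0.07, limma adjusted p = 0.999), with a ratio interval of 0.859 to 1.08. Without control replicate 2, the library at 830 TPM, it was 0.0049. The medians in this line were 719 TPM in the controls and 720 TPM in the cKO. Of all genes tested 58.5% had a positive log2 fold change in the exon 2-3 line and 43.2% in the exon 2 line. The share with a lower mean in both was not computed.

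Canx was the only one of the 5 whose cKO and control libraries did not overlap within a line. It lies on chromosome 11 at 50293957 to 50325673 (minus strand). Canx was at 286, 279, 245 and 275 TPM in the exon 2-3 controls and at 289, 287, 298 and 288 TPM in the cKO libraries. The lowest cKO library stood just above the highest control. Groups failed to overlap in 14.5% of all genes tested in this line and in 1.83% in the exon 2 line. Canx had a log2 fold change of 0.10 (SE 0.05, limma adjusted p = 0.337) and a ratio of 1.07 (95% interval 0.985 to 1.17). Without control replicate 3, the library at 245 TPM, it was 0.05 (limma adjusted p = 0.445), and under median centring it was 0.05 (limma adjusted p = 0.45). Quantile normalisation brought Canx past the threshold (0.17, limma adjusted p = 0.0423), the only one of 295 fits of these 5 genes and 3 cKO contrasts under other settings to do so. Exon 2 controls had 314, 310, 299 and 294 TPM and the cKO libraries 266, 300, 311 and 298 TPM. Those groups overlapped and their means were ordered the other way, with a log2 fold change of -0.05 (SE 0.06, limma adjusted p = 0.999) and a ratio interval of 0.883 to 1.06. The effects of the 2 lines differed by 0.15 for Canx, and that difference did not pass the test (95% interval -0.02 to 0.32, limma adjusted p = 0.405).

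Derl2 lies on chromosome 11 at 71007440 to 71019841 (minus strand). Derl2 was at 13.6, 11, 12.2 and 14 TPM in the exon 2-3 controls and at 14.3, 13.6, 13.9 and 14.2 TPM in the cKO libraries. The cKO libraries lay in or above the upper part of the control range and spread less, with an SD of 0.327 TPM against 1.38 TPM. Derl2 had a log2 fold change of 0.14 (SE 0.08, limma adjusted p = 0.368) and a ratio of 1.10 (95% interval 0.971 to 1.25). Without control replicate 2, the library at 11 TPM, the log2 value was 0.07, and it was 0.09 under quantile normalisation and under median centring. Exon 2 controls had 11.7, 12.9, 14 and 12.8 TPM and the cKO libraries 12.2, 13.3, 14.4 and 13.1 TPM. These values interleaved, and the log2 fold change was 0.04 (SE 0.08, limma adjusted p = 0.999; ratio interval 0.913 to 1.16). Derl2 overlaps Mis12, a kinetochore gene on the other strand with a mean of 21.5 TPM. The labels do not say if reads were counted by strand, so those of Derl2 and Mis12 in the overlap cannot be told apart. Mis12 had a log2 fold change of -0.06 in the exon 2-3 line.

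**Figure D2:**
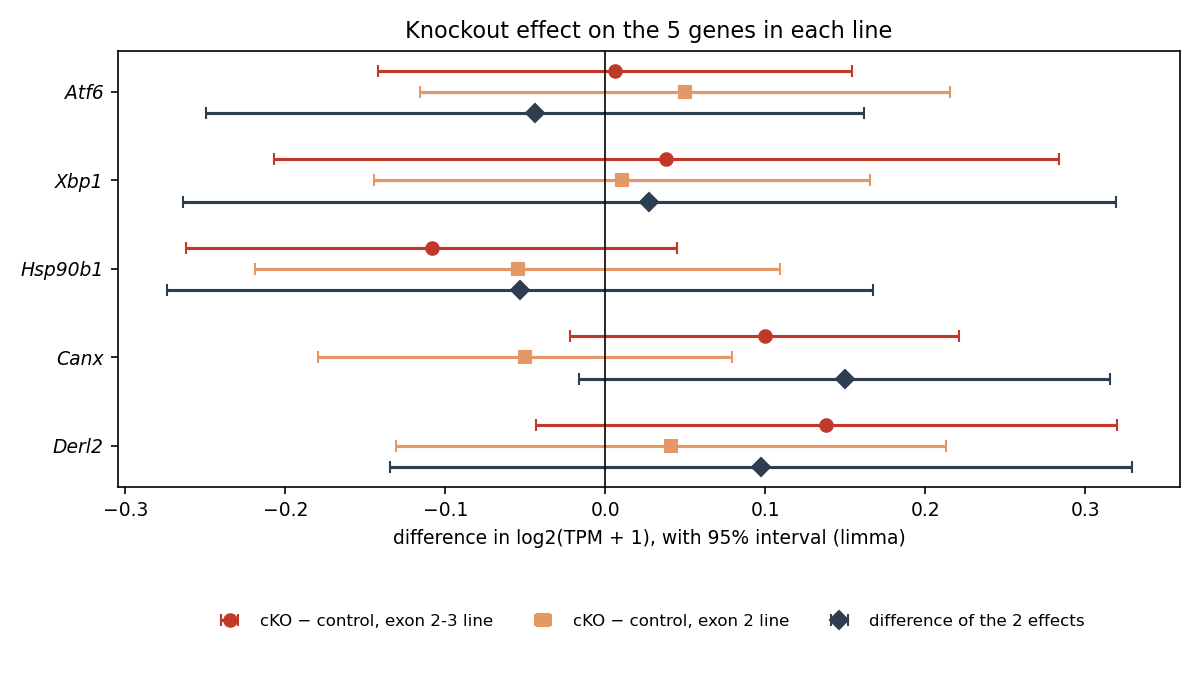
Difference in log2(TPM + 1) between cKO and control for each of the 5 genes in the exon 2-3 line (circles) and the exon 2 line (squares), and the difference of these effects (diamonds), each with its 95% interval from limma (n = 4 per group). Every interval includes 0, and the within-line estimates farthest from 0 are 0.14 for Derl2 and -0.11 for Hsp90b1, both in the exon 2-3 line.

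The difference of the cKO effect between the lines passed the test for none of the other 4 genes. It was -0.04 for Atf6, 0.03 for Xbp1, -0.05 for Hsp90b1 and 0.10 for Derl2 (limma adjusted p = 0.896, 0.968, 0.876 and 0.76). The Xbp1 value turned negative under quantile normalisation (-0.02), median centring (-0.03) and array weights (-0.04). As ratios, these differences had 95% intervals of 0.841 to 1.12 (Atf6), 0.833 to 1.25 (Xbp1), 0.827 to 1.12 (Hsp90b1) and 0.911 to 1.26 (Derl2). For cKO over control within a line, the ratio intervals of the 5 genes reached no higher than 1.25 (Derl2, exon 2-3 line). They reached no lower than 0.834 (Hsp90b1, exon 2-3 line), and each gene's own interval is given with its values.

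Control replicate 3 of the exon 2-3 line stood apart. It had the lowest value of the 4 controls for 4 of the 5 genes (all but Derl2), for 22 of 26 tested genes of the endoplasmic reticulum lists and for 64.9% of all genes tested. The rows used held 15.2% of the TPM of this library, against 16.2% to 16.5% in the other controls of the line. In the exon 2 line, cKO replicate 1 was the lowest of its group for all 5 genes, for 15 of those 26 and for 39.6% of all genes tested. The part of these libraries in the differences of the 5 genes was not tested beyond leaving each out, which brought none of the 5 past the threshold in either line.

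Between the lines the level of Atf6 differed most. The exon 2-3 controls averaged 16.6 ± 1.23 TPM and the exon 2 controls 23.5 ± 2.02 TPM (SD, n = 4 each). Atf6 was lower in the exon 2-3 controls by a log2 difference of -0.48 (SE 0.07, limma adjusted p = 3.135e-05; ratio 0.717, 95% interval 0.648 to 0.793). All tested genes had a median of -0.14 in this comparison, and 52.6% were called, 14.4% higher and 38.1% lower. The share of calls that were higher was 27.5%, and it was 39.9% under quantile normalisation and 57.7% under median centring. After median centring the Atf6 difference was -0.30 and still past the threshold. The control groups failed to overlap in 45.5% of all genes tested. The 8 libraries of one line did not overlap the 8 of the other in 25% of all genes tested, Atf6 among them. Canx was also lower in the exon 2-3 controls (-0.16, limma adjusted p = 0.0198), but this call was lost after median centring, with the sign turned (0.02, limma adjusted p = 0.804), without exon 2-3 control replicate 3 (-0.12, limma adjusted p = 0.0666) and without exon 2 control replicate 1 (-0.15, limma adjusted p = 0.054). Xbp1 (0.09), Hsp90b1 (-0.09) and Derl2 (-0.02) did not pass, while under median centring Xbp1 passed at 0.27 (limma adjusted p = 0.0158), Hsp90b1 turned to 0.09 and Derl2 to 0.16.

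Ordered by group mean, Atf6 ran from 16.6 TPM in both exon 2-3 groups to 23.5 TPM in the exon 2 controls and 24.4 TPM in the exon 2 cKO. Only the step between the lines separated neighbouring groups without overlap. Xbp1 ran from 65.0 TPM (exon 2 control) through 65.4 (exon 2 cKO) and 69.6 (exon 2-3 control) to 71.4 TPM (exon 2-3 cKO), and all neighbours overlapped. Hsp90b1 ran from 638 TPM (exon 2-3 cKO) through 687 (exon 2-3 control) and 706 (exon 2 cKO) to 735 TPM (exon 2 control), again with overlap at each step. For Canx the lowest mean, 271 TPM in the exon 2-3 controls, was separated from the 290 TPM of the exon 2-3 cKO, and the exon 2 cKO (294 TPM) and control (304 TPM) overlapped their neighbours. Derl2 means spanned only 12.7 to 14 TPM, from the exon 2-3 controls to the exon 2-3 cKO, and all neighbours overlapped.

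**Figure D3:**
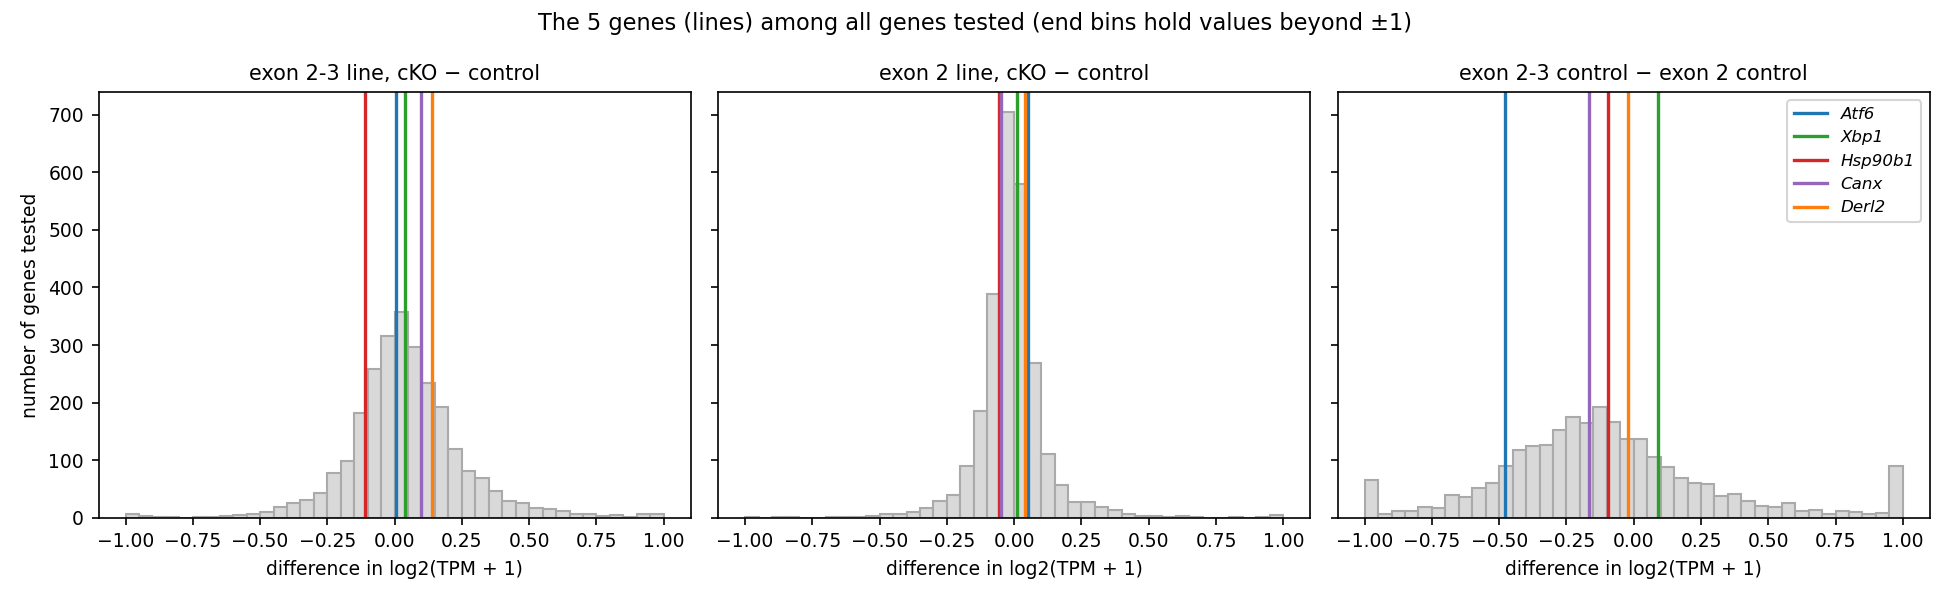
Histograms of the difference in log2(TPM + 1) over all 2620 genes tested for cKO minus control in each line and for exon 2-3 control minus exon 2 control (y axis: number of genes; end bins hold values beyond 1 or -1), with a vertical line for each of the 5 genes. The 5 lie between -0.11 and 0.14 in the exon 2-3 line, where the median of all genes tested is 0.03. In the exon 2 line they lie between -0.05 and 0.05, with a median of -0.01 over all genes tested. Atf6 lies at -0.48 in the comparison of controls.

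Ratios between the 5 genes within a library, which do not depend on how a library is scaled, were compared after their values had been seen. All 10 pairs were compared in each line by a two-sided exact permutation test (20 comparisons), where 4 libraries against 4 cannot give a p below 0.02857. In the exon 2-3 line the ratio of Hsp90b1 to Derl2 was 51.4, 60.3, 52.2 and 53.7 in the controls and 46.8, 43.2, 43.7 and 48.1 in the cKO libraries. All 4 cKO libraries lay below all 4 controls, a log2 difference of -0.26 (exact permutation p = 0.02857, adjusted p = 0.2857). The ratio of Atf6 to Canx was 0.0611 in the controls and 0.0572 in the cKO libraries (geometric means), also without overlap (exact permutation p = 0.02857, adjusted p = 0.2857). For Hsp90b1 to Canx, 2 chaperones whose windows both hold the ERSE, the ratio was 2.44, 2.37, 2.61 and 2.73 in the controls and 2.32, 2.05, 2.05 and 2.37 in the cKO libraries (log2 difference -0.21, exact permutation p = 0.0571, adjusted p = 0.381). No comparison passed after adjustment over the 20. Single genes failed to overlap in 14.5% of all genes tested in the exon 2-3 line, and the share among other gene pairs was not computed. The 3 log2 differences in the exon 2 line were -0.10, 0.10 and -0.0047, and the groups overlapped in each.

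**Figure D4:**
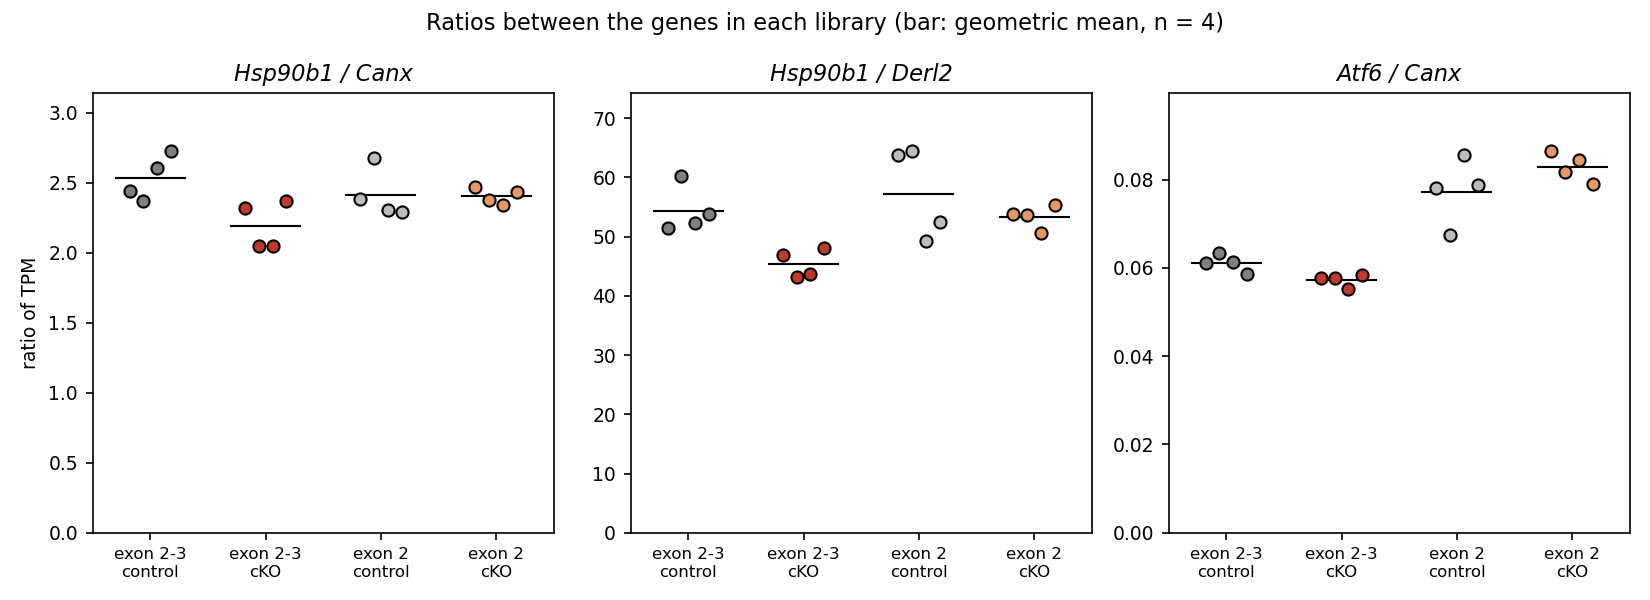
Ratio of TPM within each library for Hsp90b1 to Canx, Hsp90b1 to Derl2 and Atf6 to Canx (linear axes from 0), by group, with 1 point per library and a bar at the geometric mean (n = 4). In the exon 2-3 line the Hsp90b1 to Derl2 ratios of the cKO libraries (43.2 to 48.1) lie below those of the controls (51.4 to 60.3), while in the exon 2 line the groups overlap.

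Of the other genes of the endoplasmic reticulum, 1 passed the test for cKO against control in the exon 2-3 line and none in the exon 2 line. The lists name 151 genes of sensing, chaperones, lectin and thiol folding, degradation, protein entry and UFM1 modification; 27 were among the rows and 26 were tested, 21 of them besides the 5 above. In the exon 2-3 line 15 of the 21 had a positive log2 fold change, against 58.5% of all genes tested, and 6 a negative one, with a median of 0.08 against 0.03 over all genes tested, and 1 was called (4.76%, against 6.72% of all genes tested). Of the 21, 6 had an unadjusted p under 0.05 there, against 21.1% of all genes tested. In 5 of them cKO and control libraries did not overlap, against 14.5% of all genes tested. In the exon 2 line 9 were positive, against 43.2% of all genes tested, and 12 negative, with a median of -0.02 against -0.01. Limma called none of them there, against 0.0763% of all genes tested. None had an unadjusted p under 0.05, against 3.21% of all genes tested. For the difference between the lines 18 of the 21 were positive, against 59.7% of all genes tested, and 3 negative. For this difference limma called 0 of the 21, against 2.37% of all genes tested. An unadjusted p under 0.05 was found for 5 of them (Fkbp10, Uggt1, Os9, Tram2 and Ufc1), against 15% of all genes tested. Between the controls of the lines, 4 of the 21 were called higher and 10 lower in the exon 2-3 line (66.7%, against 52.6% of all genes tested). The 4 higher ones were Sdf2, Cnpy2, Sec61g and Ufc1, named here after their values were seen.

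The gene called in the exon 2-3 line was Tram2 (chromosome 1, 21001397 to 21079225), a component linked to the protein entry channel of the endoplasmic reticulum. Its controls had 5.06, 6.37, 4.46 and 6.02 TPM and its cKO libraries 7.78, 8.17, 8.30 and 7.17 TPM. All cKO libraries exceeded all controls, and Tram2 rose by a log2 fold change of 0.46 (SE 0.11, limma adjusted p = 0.0351). The call was lost without control replicate 1 (limma adjusted p = 0.0998) and without cKO replicate 1, 2, 3 or 4 (0.0746, 0.0934, 0.1007 and 0.055). It was lost as well with no filter on low values (limma adjusted p = 0.1007), and the fit with the replicate number as a block gave 0.0577. The difference of the Tram2 effect between the lines was 0.35 and did not pass (limma adjusted p = 0.237).

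The genes next in size on each list did not pass in the exon 2-3 line. Among the sensors Ern1, which encodes IRE1, had 4.62, 3.99, 4.14 and 5.35 TPM in the controls and 5.33, 5.89, 5.65 and 6.33 TPM in the cKO libraries, a log2 fold change of 0.30 (limma adjusted p = 0.108). Only 1 control reached the lowest Ern1 value of the cKO libraries. Among the chaperones the log2 fold change was 0.28 for Fkbp10, a peptidyl-prolyl isomerase that acts on collagen (limma adjusted p = 0.0838), and 0.13 for Sdf2 (limma adjusted p = 0.38). Uggt1, which re-glucosylates misfolded glycoproteins so that calnexin can bind them again, had 23.1, 23.9, 18.9 and 23.2 TPM in the controls and 26.2, 25.3, 25.8 and 25.9 TPM in the cKO libraries. Its cKO libraries all exceeded the controls, with a log2 fold change of 0.21 (limma adjusted p = 0.141). Without control replicate 3, the lowest control for both genes, the value was 0.14 for Uggt1 (limma adjusted p = 0.111) and 0.07 for Sdf2 (limma adjusted p = 0.578). Of the lectins that pass glycoproteins to degradation, Os9 had 24.1, 23.5, 21.9 and 26.3 TPM in the controls and 28.1, 28.1, 27.6 and 29.0 TPM in the cKO libraries (log2 fold change 0.23, limma adjusted p = 0.0631). The other, Erlec1, had a log2 fold change of 0.84 (SE 0.49, limma adjusted p = 0.367) that rested on control replicate 3 at 4.07 TPM, since the other controls had 24.4 to 29.6 TPM and the cKO libraries 29.6 to 33.4 TPM. Without that control the Erlec1 value was 0.22 (limma adjusted p = 0.144). In UFM1 modification, Ufc1, the conjugating enzyme, had 106 to 110 TPM in the controls and 88.7 to 102 TPM in the cKO libraries, with a log2 fold change of -0.17 (limma adjusted p = 0.0927). Cdk5rap3 had 0.05 (limma adjusted p = 0.662). Fkbp10, Sdf2, Uggt1, Erlec1 and Os9 overlap other rows, so part of their reads may be shared, while Tram2, Ern1, Ufc1 and Cdk5rap3 overlap none. Os9 and Fkbp10 passed under quantile normalisation (limma adjusted p = 0.0152 and 0.0109) and under median centring (0.0203 and 0.0155). Both also passed when rescaled without hemoglobin genes, in one fit over all 16 libraries and without control replicate 4. Without control replicate 3, the lowest control for both, the values were 0.19 and 0.20 (limma adjusted p = 0.0718 and 0.0753). Neither passed with the replicate number as a block (limma adjusted p = 0.0707 and 0.05755).

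**Figure D5:**
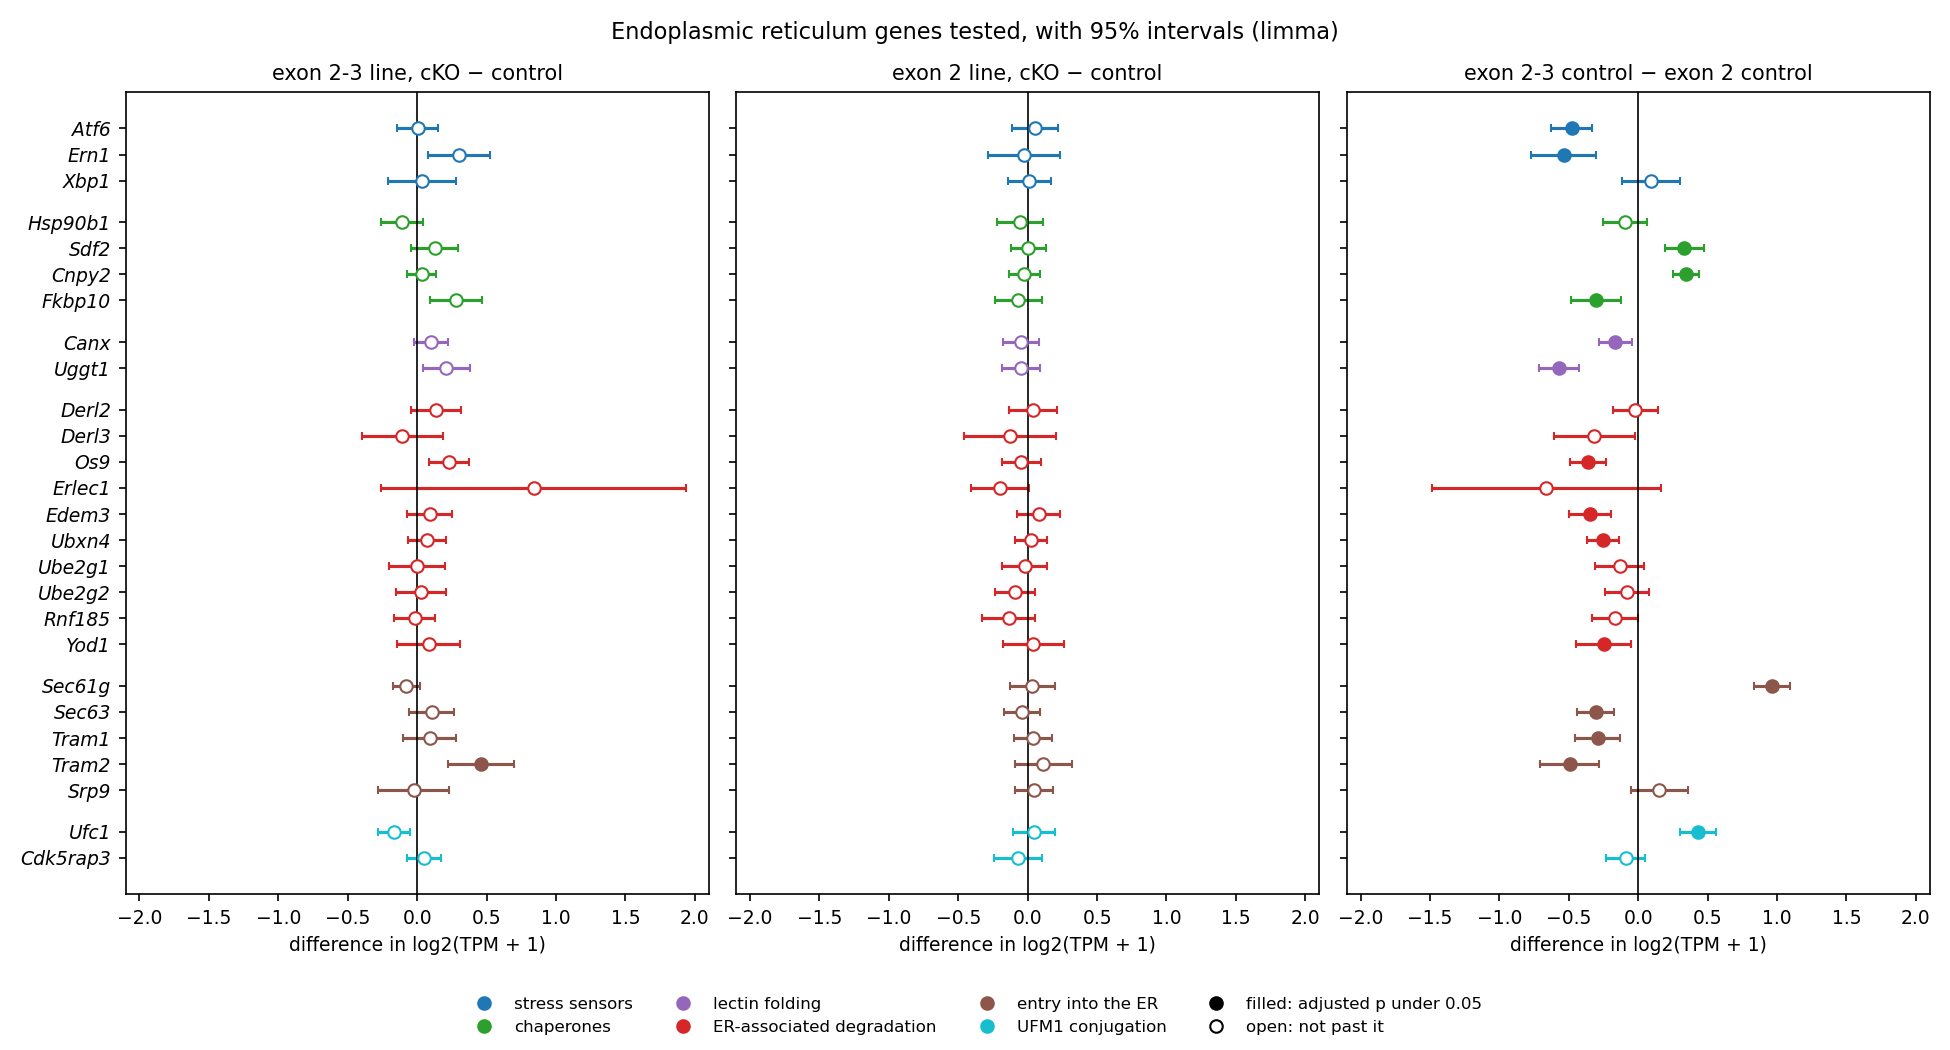
Difference in log2(TPM + 1) with its 95% interval (limma, n = 4 per group) for the 26 tested genes of the endoplasmic reticulum lists, coloured by list, for cKO minus control in each line and for exon 2-3 control minus exon 2 control. Filled points have an adjusted p under 0.05: Tram2 (0.46) alone in the exon 2-3 line, none in the exon 2 line and 16 between the controls, and the wide interval of Erlec1 goes with 1 control at 4.07 TPM.

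An ERSE lay in the windows of 3 of the 21 tested list genes that had one (14.3%), Canx, Hsp90b1 and Derl3. Over all 1885 tested genes with a window there were 5 (0.265%), the others being Pan2 and Spats2l. The element was searched because it is known in this pathway, so these shares describe the windows and were not tested. Log2 fold changes of these 5 genes in the exon 2-3 line were 0.10 for Canx, -0.11 for Hsp90b1, -0.11 for Derl3, -0.11 for Pan2 and 0.30 for Spats2l. Derl3 averaged 1.22 TPM, close to the filter of 1 TPM. The signs were mixed, and limma called none of the 5 genes in either line.

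Genes most like each of the 5 across the 16 libraries, after centring log2(TPM + 1) on each line's mean, were Smcr8 and Cpd for Atf6 (Pearson r = 0.919 and 0.901), Tada2a and Dhrs7b for Xbp1 (0.895 and 0.831), Cdkn2aipnl and Gpx4 for Hsp90b1 (0.896 and 0.885), Serinc1 and Rab1a for Canx (0.903 and 0.886), and Rnf135 and Srgn for Derl2 (0.841 and 0.83). Each pair was the highest among 2619 genes, and the values share libraries, scaling and group effects. Srgn averaged 1.21 TPM, close to the filter of 1 TPM. Between the 5 genes themselves r was highest for Xbp1 with Hsp90b1 (0.723) and lowest for Atf6 with Hsp90b1 (-0.17).

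Cell type markers bear on these bulk values, where fewer cells of a type and less RNA per cell cannot be told apart. Of 22 cardiomyocyte markers 6 were in the rows. They summed to 17000 to 18470 TPM in the exon 2-3 controls and 16490 to 17480 TPM in its cKO. In the exon 2 line the sums were 12510 to 14610 TPM in the controls and 12890 to 13980 TPM in the cKO. Hand1, a small part of these sums, was called lower in the exon 2-3 cKO (log2 fold change -0.60, limma adjusted p = 0.00573). It had 55.6 to 71.5 TPM in those controls and 36.3 to 45.1 TPM in the cKO. Tnni1 (-0.39), Myl7 (-0.07), Myl4 (-0.02), Pln (0.01) and Tnnt2 (0.02) were not called there, and 2.56% of all genes tested were called lower. The 5 of 13 epicardial and mesenchymal markers found summed to 256 to 291 TPM in the exon 2-3 controls. In the exon 2-3 cKO they summed to 395 to 432 TPM, with no overlap. Single genes failed to overlap in 14.5% of all genes tested in this line. The sums were 385 to 548 TPM in the exon 2 controls and 377 to 486 TPM in its cKO. Tcf21, Dcn, Col1a1 and Col3a1 were called higher in the exon 2-3 cKO (limma adjusted p = 0.000969, 0.00635, 0.00652 and 0.00939). Lum was not called (limma adjusted p = 0.127), and 4.16% of all genes tested were called higher. Erythroid sums (4 of 14 markers) ran from 1512 to 11290 TPM in the exon 2-3 cKO, from 2995 to 4554 TPM in its controls and from 2018 to 4707 TPM over the exon 2 line. Myeloid sums (4 of 10) lay between 60.3 and 89.5 TPM, and Sox17, the only one of 16 endothelial markers in the rows, between 0.784 and 2.39 TPM. No marker found for these 5 cell types was at 0 in any library. The part of these cell types in the values of the 5 genes was not tested.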

How the data were processed

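Total RNA of 16 ventricle samples was sequenced, and the authors deposited 1 table of TPM values per gene. The submitters' processing notes list FastQC, Trim Galore 0.6.7, HISAT2 2.2.1, StringTie 2.2.1, featureCounts, DESeq2 and GRCm38, without roles. The labels' protocols describe both stranded mRNA libraries and ribosomal RNA depletion, and the settings of the quantification are not given in the sources used here. Group and replicate came from sample titles. One line of the table was cut short and left out, which left 5921 rows. The coordinates in 5919 of them equalled RefSeq GRCm38.p6.

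TPM is not a count, so log2(TPM + 1) was analysed, a scale that understates the change of low genes. Genes with a mean of at least 1 TPM were tested with limma 3.58.1 (lmFit, eBayes with trend) in R 4.3.3, two-sided, within each line's 8 libraries. The line difference and the control comparison used a group means model over 16 libraries. P-values were adjusted (Benjamini-Hochberg) over all 2620 genes. The script was tested on simulated data. Ratios used exact permutation tests. The replicate values carry no depth. The limma p-values set a mean difference against the spread between these samples, with a variance estimate that borrows from all 2620 genes.

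The 5 genes, the lists, the markers and the motifs were chosen with earlier results of these data known. The neuronal marker list is not reported here. From each list the text names genes called in either line or in the line difference, and otherwise the 2 with the largest fold change in the exon 2-3 line. It also names the 2 genes most correlated with each of the 5. Other pseudocounts, filters, scalings, variance settings, a replicate block and leaving out each library were tried. Summaries used Python 3.11.15 with pandas 2.3.3 and figures matplotlib 3.10.9.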

Additional observations from a re-analysis of the deposited data

Results flagged for a closer look

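In groups of 4 libraries, a single value can lie far from the other 3, and a rule for such values that marks about 1 in 20 groups by chance marked 2 of 56 groups here. Uggt1 was at 18.9 TPM in control replicate 3 of the exon 2-3 line, where the other controls had 23.1 to 23.9 TPM. Erlec1 was at 29.6 TPM in cKO replicate 3 of the exon 2-3 line, where the other cKO libraries had 32.8 to 33.4 TPM. The rule did not mark Erlec1 in control replicate 3, at 4.07 TPM against 24.4 to 29.6 TPM in the other controls, although that departure is larger, because the rule divides the gap to the nearest library by the range of the group. None of the groups of Atf6, Xbp1, Hsp90b1, Canx or Derl2 was marked.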

How the results depend on the processing

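Of the cKO effects of the 5 genes, those of Atf6 and Xbp1 in the exon 2-3 line turned sign: Atf6 to -0.028 under quantile normalisation, -0.043 under median centring and -0.000425 when rescaled without hemoglobin genes, and Xbp1 to -0.011 under median centring. The Xbp1 difference between the lines turned to -0.022 under quantile normalisation, -0.026 under median centring and -0.043 with array weights. Canx in the exon 2-3 line passed under quantile normalisation (0.17). Between the controls, median centring gave 0.27 for Xbp1 (now called), 0.086 for Hsp90b1 and 0.016 for Canx, and Derl2 became 0.16 under quantile normalisation, 0.16 under median centring and 0.020 without hemoglobin genes. The causes were not tested. The 176 genes called in the exon 2-3 line became 87 with no filter on low values, 311 under quantile normalisation, 343 under median centring and 269 without hemoglobin genes. The share of these calls that were higher, 61.9%, became 50.5% under quantile normalisation and 41.4% under median centring. Without exon 2-3 control replicate 3 it was 44.7% of 190 calls, so that most calls were then lower, and without control replicate 4 it was 75.3% of 174 calls. The 1 called gene of the lists became 0 with no filter, 4 under quantile normalisation, and 3 under median centring, without hemoglobin genes and in one fit over all 16 libraries. The 2 genes called in the exon 2 line became 4 in that one fit. The 62 genes called for the difference between the lines became 41 with no filter, 133 under quantile normalisation, 127 under median centring, 94 without hemoglobin genes and 136 with array weights, and 0 list genes became 1 under quantile normalisation and 1 under median centring.

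Leaving out each library in turn, log2 values ranged as follows. Atf6 ran from -0.037 to 0.036 for exon 2-3, from -0.0033 to 0.090 for exon 2 and from -0.087 to 0.0092 for their difference. Xbp1 ran from -0.039 to 0.109, from -0.041 to 0.052 and from -0.050 to 0.099. In the exon 2 line Hsp90b1 ran from -0.096 to 0.0049, Ern1 from -0.108 to 0.040, Os9 from -0.082 to 0.0016, Sdf2 from -0.025 to 0.035 and Ufc1 from -0.012 to 0.089. The log2 ratio of Hsp90b1 to Canx in the exon 2 line, a comparison and alternative chosen after seeing the data, ran from -0.029 to 0.046. Between the controls Derl2 ran from -0.066 to 0.043 and Canx from -0.191 to -0.118. Counts of genes called ran from 70 to 190 in the exon 2-3 line (70 without its cKO replicate 3), from 2 to 4 in the exon 2 line and from 36 to 84 for the difference. List genes called ran from 0 to 3 in the exon 2-3 line and from 0 to 1 for the difference, where Os9 passed without exon 2-3 control replicate 4 (0.32, limma adjusted p = 0.0477).

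The replicate numbers were not taken as pairs. Same-numbered control and cKO libraries correlated in their deviations at -0.0287, 0.053, -0.00626 and 0.211 (exon 2-3 line). For the exon 2 line the values were 0.0982, 0.166, 0.2 and 0.0639, where each library matched its own number best in 4 of 4, a hint from the data and not from the design. With the replicate block, the exon 2-3 line had 149 genes called, 0 of them list genes, and the exon 2 line had 2. In that exon 2-3 fit the SE was 0.06 for Xbp1 (limma adjusted p = 0.732) and 0.05 for Hsp90b1 (limma adjusted p = 0.213). Without the block it was 0.11 and 0.07. With the block the SE was 0.07 for Atf6 and Derl2 and 0.06 for Canx, and none of these genes passed. TPM gives no depth, so no limit from counting error can be set.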
